A study of Mus musculus with 8 samples.

Results

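Transcripts of 10 chemokine genes were followed in cultures of mouse calvarial osteoblasts treated with parathyroid hormone (PTH) or vehicle: Ccl2, Ccl7, Ccl9, Ccl5, Cxcl1, Cxcl5, Cxcl12, Cxcl14, Cxcl16 and Cx3cl1. They were chosen by gene symbol from a table of 47706 genes, and each had 1 entry in it. RNA was sequenced from 8 cultures of primary calvarial osteoblasts, which are bone-forming cells digested from the skullcap of newborn mice. All 8 were differentiated for 7 days, 4 then received PTH for 24 hours, and 4 received vehicle, which is PBS in the study's methods. The labels give no strain, genotype or sex, name the cultures with an unexplained "Con", and do not say whether the cultures came from separate animals. Adjusted p-values therefore weigh the treatment difference against the spread between these cultures, estimated with help from all genes tested. That spread may be technical.

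The study's methods describe osteogenic medium and a period of low serum before treatment, whereas the labels name adipogenic differentiation. Levels are given as CPM, the counts of a gene relative to the normalized library size. The median of 10 osteoblast markers was 301 to 537 CPM over the 8 cultures, and that of 6 adipocyte markers was 1.75 to 3.35 CPM. Markers of macrophages were present. The summed level of 10 such genes was 1588 to 2051 CPM with PTH and 1014 to 1646 CPM with vehicle. By edgeR's test 2 of these 10, Lyz2 and Tyrobp, were higher with PTH and none was lower. Of the 10 osteoblast markers, none was higher and 3 were lower. Of all genes tested, 23.3% were higher and 22.5% were lower. Neutrophil and lymphocyte markers summed to no more than 0.410 CPM in any culture, and endothelial markers to between 5.66 and 6.97 CPM. As checks of the labels, Tnfsf11, which encodes RANKL and is a known PTH target, was higher with PTH (log2 fold change 6.48), and the PTH receptor gene Pth1r was lower (log2 fold change -0.70). Total counts were 33605610 to 56090654 per PTH culture and 41618108 to 46757836 per vehicle culture. In bulk RNA, more cells of a type and more RNA per cell cannot be told apart.

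Chemokines are small secreted proteins that guide leukocytes through G protein-coupled receptors. They are named by the spacing of their first cysteines: CC, CXC or CX3C. In bone they direct monocytes that can become osteoclasts, hold hematopoietic progenitors in the marrow and recruit neutrophils in inflammation. PTH acts on osteoblasts through a receptor that raises cyclic AMP, and bone cells are one of its classical targets.

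Of the 10 chemokine genes, 8 were higher with PTH, none was lower, and Ccl5 and Cxcl12 did not pass the test (edgeR quasi-likelihood test, Benjamini-Hochberg adjusted p under 0.05 over 16736 genes). Among all genes tested, 23.3% were higher and 22.5% were lower with PTH. A log2 fold change of at least 1 was reached by 5 of the 10, Cxcl1, Ccl7, Cxcl5, Cxcl14 and Ccl2, against 7.36% of all genes tested. In 7 of the 10, every PTH culture lay above every vehicle culture, as in 21.2% of all genes tested. For each of these 7, an exact two-sided permutation test on log2(CPM + 0.1) gave p = 0.0286, the smallest that the 70 assignments of 4 and 4 cultures allow. The median log2 fold change was 1.58 over the 10 genes and -0.00081 over all genes tested. All 10 passed the filter on low counts.

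**Figure D1:**
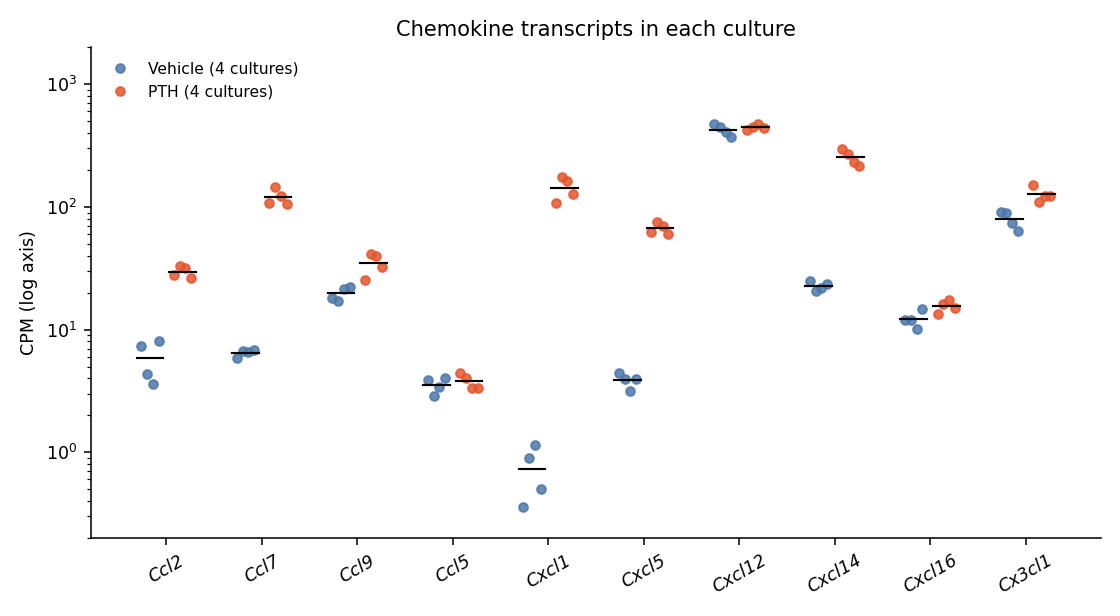
CPM of each chemokine gene (log axis) in the 4 vehicle cultures (blue) and the 4 PTH cultures (orange), with a bar at the mean of each group. The groups stand apart for 7 genes and overlap for Ccl5, Cxcl12 and Cxcl16, and the gap is widest for Cxcl1, at 0.357 to 1.15 CPM with vehicle and 107 to 177 CPM with PTH.

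Cxcl1 and Cxcl5 encode CXC chemokines that attract neutrophils through the receptor CXCR2. Cxcl1 (chr5:90891241-90893115, plus strand, GRCm38) had 0.357, 0.895, 1.15 and 0.504 CPM in vehicle cultures 1 to 4, from 16 to 55 counts each. In PTH cultures 1 to 4 it had 107, 177, 162 and 127 CPM, from 5356 to 6225 counts. The lowest PTH culture was therefore far above the highest vehicle culture. The mean went from 0.726 ± 0.361 to 143 ± 31.9 CPM (SD, n = 4), a log2 fold change of 7.62 (SE 0.271, edgeR adjusted p = 5.16e-10) or 197-fold. It ranked 16 of 16736 genes by log2 fold change, and the value stayed between 7.39 and 7.94 when each culture was left out in turn.

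Cxcl5 (chr5:90759360-90761624, plus strand) had 4.44, 3.95, 3.17 and 3.97 CPM with vehicle and 62.6, 75.2, 70.5 and 59.9 CPM with PTH. The groups did not overlap, and within each the cultures lay close together. Means of 3.88 ± 0.526 and 67.1 ± 7.04 CPM (SD, n = 4) gave a log2 fold change of 4.11 (SE 0.116, edgeR adjusted p = 7.50e-11), or 17.3-fold.

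Both genes lie in a row of 7 CXC ligand genes that spans 146.579 kb of chromosome 5. In chromosomal order these are Cxcl5, Ppbp, Pf4, Cxcl3, Cxcl15, Cxcl1 and Cxcl2. Cxcl2, which encodes a close relative of CXCL1, rose from 0.338 ± 0.144 to 2.29 ± 0.431 CPM (log2 fold change 2.75, SE 0.350, edgeR adjusted p = 5.01e-05). Cxcl3, another neutrophil attractant, had 0, 3, 0 and 0 counts in the vehicle cultures and 54 to 115 counts in the PTH cultures, a ratio of CPM of 117 with a 95% exact counting interval of 39.6 to 570 (edgeR adjusted p = 7.08e-06). Ppbp, best known from platelets, had 0 to 5 counts with vehicle and 19 to 29 with PTH, a ratio of 14.8 (counting interval 6.91 to 37.9, edgeR adjusted p = 0.00101). These intervals cover counting error only and treat the deposited counts as read counts. Those counts were made from transcript coverage with a read length setting that is not given. If that setting inflated them, the intervals are too narrow.

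Pf4, which encodes platelet factor 4 and is also made by macrophages, differed least of the called genes in this row, and its groups overlapped. It had 2.85 to 6.11 CPM with vehicle and 5.37 to 8.33 CPM with PTH (log2 fold change 0.67, SE 0.221, edgeR adjusted p = 0.0267). The call was lost without PTH culture 3 or any of vehicle cultures 1 to 3, with adjusted p between 0.0609 and 0.0922. Cxcl15 had at most 13 counts in a culture and was not tested. Rassf6 and Mthfd2l are the nearest tested protein-coding genes on either side of the row that are not chemokine genes. They were chosen for their position after their values were seen. On the log2 scale they were higher by 0.55 (edgeR adjusted p = 0.0485) and 0.37 (adjusted p = 0.0171).

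The 120 bases just before the RefSeq start sites of Cxcl1, Cxcl2 and Cxcl3 are shown because these neighbours shared a short arrangement. Capitals mark GGAATTTCC, a letter string of the type bound by NF-κB, and ATAAAAG, a string of the TATA box type. The strands are plus, and the regions on GRCm38.p6 are chr5:90891125-90891244 for Cxcl1, chr5:90903779-90903898 for Cxcl2 and chr5:90785981-90786100 for Cxcl3.
Cxcl1: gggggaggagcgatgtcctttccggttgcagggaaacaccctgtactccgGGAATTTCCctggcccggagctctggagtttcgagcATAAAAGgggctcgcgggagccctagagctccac
Cxcl2: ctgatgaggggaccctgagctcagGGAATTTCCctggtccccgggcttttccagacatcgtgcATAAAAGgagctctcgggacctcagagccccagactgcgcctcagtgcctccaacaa
Cxcl3: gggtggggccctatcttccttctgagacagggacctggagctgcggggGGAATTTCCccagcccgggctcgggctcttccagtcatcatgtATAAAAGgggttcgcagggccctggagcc

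In each of the 3 sequences both strings were on the plus strand with GGAATTTCC farther out. It began 70 bases before the start site in Cxcl1, 96 in Cxcl2 and 72 in Cxcl3, and ATAAAAG began 34, 57 and 29 bases before it. In the GENCODE annotation the Cxcl2 gene starts at chr5:90903871, inside the bases shown. The Cxcl1 gene starts at chr5:90891241, also inside the bases shown but close to their end. The Cxcl1 and Cxcl2 distances therefore depend on the annotation. The motifs were chosen after these sequences and the counts had been seen, and both strands of the 250 bases before each start were searched. GGAATTTCC was present in 94 of 32851 promoters (0.286%), ATAAAAG in 4.83%, and both together in 8 (0.0244%). The other 5 of these 8 promoters belong to Il1rl2, Gm38531, Ntm, Olfr776 and Acot9. A sequence match is a description of letters and shows no binding.

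Promoter sequence was at hand for 27 of 38 chemokine ligand genes, among them Ccl9, Cx3cl1, Cxcl1, Cxcl12 and Cxcl14. Of the 27, GGAATTTCC was also found before Cxcl10, on the opposite strand and 158 bases from the start. ATAAAAG was also found before Ccl1, Ccl8, Ccl9, Ccl12, Ccl27a, Ppbp and Xcl1, of which Ccl1 and Xcl1 were at 0 in every culture. With the letters GGNNTTTCC, which include GGAATTTCC and were present in 4.93% of promoters, matches were also found before Ccl9, Ccl20 and Cxcl9. The cyclic AMP response element TGACGTCA, present in 1.55% of promoters, was found before none of the 27. Its shorter form TGACG, present in 17.8%, was found before Cxcl1, Cxcl12 and Ccl27a. The AP-1 string TGANTCA, present in 6.75%, was found before Ccl9, Ccl27a, Cxcl10 and Ppbp.

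**Figure D2:**
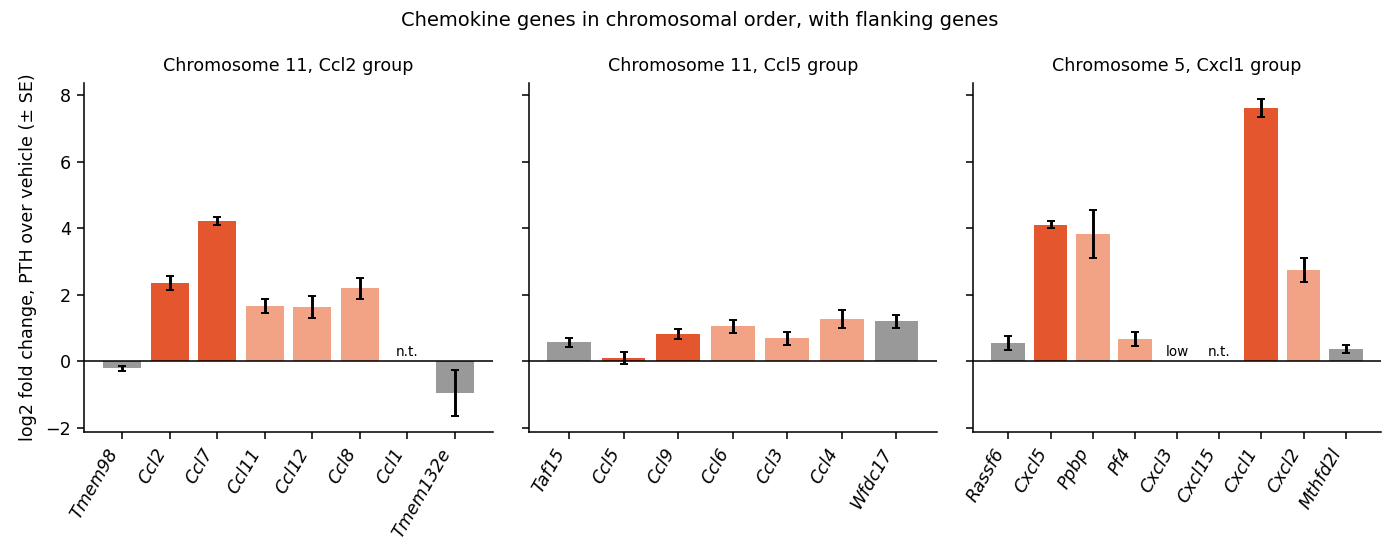
Log2 fold change of PTH over vehicle (bars, ± SE from edgeR) for chemokine genes of 3 chromosomal rows. Dark orange marks genes of the 10, light orange other ligands and grey the nearest tested genes beside the rows. Genes that were not tested are marked n.t. Cxcl3, marked low, has only 3 vehicle counts and no bar, and the chromosome 5 row runs from 0.67 for Pf4 to 7.62 for Cxcl1.

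Ccl2 and Ccl7 encode the monocyte chemoattractants MCP-1 and MCP-3, which act on the receptor CCR2 of monocytes. Ccl7 (chr11:82045712-82047525, plus strand) had 5.87, 6.75, 6.55 and 6.81 CPM in vehicle cultures 1 to 4 and 108, 145, 123 and 105 CPM in PTH cultures 1 to 4. All PTH cultures were far above all vehicle cultures, whose values were nearly level. The mean went from 6.50 ± 0.433 to 120 ± 18.4 CPM (SD, n = 4), a log2 fold change of 4.21 (SE 0.115, edgeR adjusted p = 5.58e-11) or 18.5-fold.

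Ccl2 (chr11:82035571-82037453, plus strand) had 7.32, 4.36, 3.59 and 8.02 CPM with vehicle and 27.9, 33.1, 31.6 and 26.1 CPM with PTH. The groups did not overlap, and vehicle cultures 1 and 4 were higher than vehicle cultures 2 and 3. The same pair of vehicle cultures had the higher macrophage marker sums, at 1233 and 1646 CPM against 1014 and 1126 CPM, and the part of these cells in the Ccl2 level was not tested. The log2 fold change was 2.35 (SE 0.217, edgeR adjusted p = 3.18e-06), 5.09-fold, and it lay between 2.17 and 2.54 when each culture was left out. The region overlaps Gm17268 on the opposite strand, which was listed at 0 in every culture.

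Ccl2 and Ccl7 open a row of 6 CC ligand genes that spans 270.12 kb of chromosome 11, followed by Ccl11, Ccl12, Ccl8 and Ccl1. Ccl11 encodes eotaxin, an eosinophil attractant, and Ccl8 and Ccl12 encode further monocyte chemoattractants. All 3 were higher with PTH without overlap. Ccl8 rose from 0.638 ± 0.236 to 2.94 ± 0.878 CPM (log2 fold change 2.19, SE 0.319, edgeR adjusted p = 1.47e-04). Ccl11 rose from 2.91 ± 0.885 to 9.18 ± 0.954 CPM (log2 fold change 1.66, SE 0.202, edgeR adjusted p = 3.51e-05), and Ccl12 from 1.01 ± 0.497 to 3.14 ± 0.468 CPM (log2 fold change 1.63, SE 0.328, edgeR adjusted p = 0.00150). Ccl1 was at 0 in every culture. The nearest tested protein-coding genes on either side were again chosen by position, and neither passed the test. Tmem98 had a log2 fold change of -0.21 (edgeR adjusted p = 0.0501) and Tmem132e of -0.95 (adjusted p = 0.291). Tmem98 lies far from the row, ending at chr11:80822033 where Ccl2 starts at chr11:82035571.

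Ccl9 and Ccl5 differed less. CCL9 is a CC chemokine that binds CCR1 and is known from osteoclasts and myeloid cells. Ccl9 (chr11:83572919-83578636, minus strand) had 18.1, 17.1, 21.3 and 22.4 CPM with vehicle and 25.5, 41.4, 40.0 and 32.2 CPM with PTH. The groups did not overlap, but PTH culture 1 was close to the highest vehicle cultures. The mean went from 19.7 ± 2.51 to 34.8 ± 7.41 CPM (SD, n = 4), a log2 fold change of 0.82 (SE 0.146, edgeR adjusted p = 6.80e-04). PTH culture 1 also had the lowest macrophage marker sum of the PTH cultures (1588 CPM). PTH culture 2, with the highest Ccl9, had the highest sum (2051 CPM). Total counts had the reverse order over the PTH cultures, from 56090654 in culture 1 to 33605610 in culture 2. Cxcl1 ordered the PTH cultures as Ccl9 did, so the order was not particular to Ccl9. The part of macrophages or of total counts in it was not tested. Ccl9 transcripts share at least 150 bases at 95% identity or more with other genes, among them Baz1b, Smco1 and Sphk1, so reads from this stretch may be shared.

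Ccl5 encodes RANTES, a CC chemokine made by activated lymphocytes and other cells. Ccl5 (chr11:83525778-83530518, minus strand) had 3.90, 2.87, 3.40 and 4.03 CPM with vehicle and 4.47, 4.0, 3.31 and 3.35 CPM with PTH. The groups overlapped over most of their range. The log2 fold change was 0.09 with a 95% interval of -0.29 to 0.47 (edgeR adjusted p = 0.699), and it was just below 0 without PTH culture 1 (-0.0029) or vehicle culture 2 (-0.0063).

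The row that holds Ccl5 and Ccl9 spans 138.906 kb of chromosome 11 and continues with Ccl6, Ccl3 and Ccl4, whose products attract myeloid cells. Ccl4 rose from 1.69 ± 0.570 to 4.07 ± 0.903 CPM (log2 fold change 1.26, SE 0.269, edgeR adjusted p = 0.00222) and Ccl6 from 3.12 ± 0.651 to 6.48 ± 1.57 CPM (log2 fold change 1.04, SE 0.203, edgeR adjusted p = 0.00119). Ccl3 had 4.73, 5.56, 5.45 and 9.64 CPM with vehicle and 8.70 to 11.8 CPM with PTH (log2 fold change 0.69, SE 0.206, edgeR adjusted p = 0.0167). Its groups overlapped through vehicle culture 4, which also had the highest macrophage marker sum of the vehicle cultures. The Ccl3 call was lost without vehicle culture 1, 2 or 3, with adjusted p between 0.0512 and 0.0540. The nearest tested genes beside this row, chosen by position, were higher with PTH as well. Taf15 was higher by 0.57 (edgeR adjusted p = 0.00504) and Wfdc17 by 1.20 (adjusted p = 3.49e-04) on the log2 scale.

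Cxcl14 and Cxcl12 are single genes outside these rows. CXCL14 is a CXC chemokine of stroma and epithelium whose receptor is not settled. Cxcl14 (chr13:56288643-56296551, minus strand) had 24.8, 20.7, 21.8 and 23.5 CPM in vehicle cultures 1 to 4 and 299, 269, 234 and 214 CPM in PTH cultures 1 to 4. No PTH culture came near the vehicle cultures. The mean went from 22.7 ± 1.82 to 254 ± 37.7 CPM (SD, n = 4), a log2 fold change of 3.48 (SE 0.112, edgeR adjusted p = 2.33e-10) or 11.2-fold.

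CXCL12, also called SDF-1, holds hematopoietic stem cells and B cell progenitors in the marrow through the receptor CXCR4. Cxcl12 (chr6:117168535-117181367, plus strand) had 477, 450, 405 and 369 CPM with vehicle and 427, 448, 475 and 439 CPM with PTH. The PTH values lay within the range of the vehicle values. The means were 425 ± 47.9 and 447 ± 20.5 CPM (SD, n = 4), and the log2 fold change was 0.07 with a 95% interval of -0.11 to 0.26 (edgeR adjusted p = 0.517). Its upper end was below the point estimates of the 8 called genes, the smallest of which was 0.34 for Cxcl16. The 95% interval of Cxcl16 was 0.07 to 0.60 and overlapped that of Cxcl12.

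The 120 bases before the start sites of Cxcl14 and Cxcl12 are shown beside those of Cxcl1 for the contrast between the genes, since none of GGAATTTCC, ATAAAAG or TGACGTCA was found in the 250 bases before either. Capitals mark the TGACG match of Cxcl12, which reads CGTCA on the strand shown. The regions on GRCm38.p6 are chr13:56296552-56296671 on the minus strand for Cxcl14 and chr6:117168415-117168534 on the plus strand for Cxcl12.
Cxcl14: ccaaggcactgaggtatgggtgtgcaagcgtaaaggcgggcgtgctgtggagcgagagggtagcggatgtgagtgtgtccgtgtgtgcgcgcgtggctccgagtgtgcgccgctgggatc
Cxcl12: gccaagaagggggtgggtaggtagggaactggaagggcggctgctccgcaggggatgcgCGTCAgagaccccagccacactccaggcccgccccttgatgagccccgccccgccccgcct

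Cx3cl1 and Cxcl16 encode the chemokines that are made as membrane proteins on a mucin-like stalk and released by cleavage. CX3CL1, or fractalkine, binds CX3CR1 of monocytes and macrophages. Cx3cl1 (chr8:94772009-94782427, plus strand) had 91.1, 89.2, 74.5 and 63.2 CPM with vehicle and 151, 109, 124 and 123 CPM with PTH. The groups did not overlap, and PTH culture 1 was the highest of all. Means of 79.5 ± 13.1 and 127 ± 17.5 CPM (SD, n = 4) gave a log2 fold change of 0.68 (SE 0.123, edgeR adjusted p = 7.89e-04). Its neighbouring ligand genes Ccl22 and Ccl17 had no count and at most 5 counts in a culture, and neither was tested. The nearest tested genes beside these 3, chosen by position, were Ciapin1 and Arl2bp. Ciapin1 was higher by 0.80 on the log2 scale (edgeR adjusted p = 2.66e-05) and Arl2bp had a log2 fold change of 0.05 (adjusted p = 0.478).

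CXCL16 binds CXCR6 and also takes up oxidized lipids. Cxcl16 (chr11:70453983-70459984, minus strand) had 12.0, 12.1, 10.1 and 14.6 CPM with vehicle and 13.3, 16.1, 17.3 and 15.1 CPM with PTH. The groups overlapped, since vehicle culture 4 was above PTH culture 1. The log2 fold change of 0.34 (SE 0.122) passed the test narrowly (edgeR adjusted p = 0.0406), and the exact permutation test gave a two-sided p of 0.0571. The call was lost without any 1 of PTH cultures 2, 3 and 4 and vehicle cultures 1, 2 and 3 (log2 fold change 0.25 to 0.34, adjusted p 0.0684 to 0.122), and with the culture number as a block (log2 fold change 0.34, edgeR adjusted p = 0.0630). Zmynd15 overlaps it on the opposite strand at 0.964 to 2.65 CPM, and reads of the overlap cannot be told apart without a strand setting.

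Of 7 genes for proteases that cleave chemokines, none was higher and 1 was lower with PTH, where 23.3% of all genes tested were higher and 22.5% lower. Adam17, which encodes a sheddase of CX3CL1 and CXCL16, fell from 98.6 ± 4.55 to 79.8 ± 10.3 CPM (log2 fold change -0.30, SE 0.0873, edgeR adjusted p = 0.0133). Its groups overlapped, since PTH culture 1 at 92.94 CPM was just above vehicle culture 1 at 92.62 CPM. The Adam17 call was lost without PTH culture 3 (adjusted p = 0.0520). Adam10, the other sheddase, had a log2 fold change of -0.22 (edgeR adjusted p = 0.0579).

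To set the genes against each other, CPM was divided by the length in kb of the longest principal transcript of each. With vehicle, Cxcl12 led with 136 CPM per kb, followed by Cx3cl1 with 24.0 and Cxcl14 with 12.4 CPM per kb, and the ranges of these 3 did not overlap with the next. Ccl7, Ccl2, Ccl5 and Ccl9 came next at 8.11, 7.16, 6.68 and 6.55 CPM per kb and the ranges of neighbours in this order overlapped, although Ccl7 was above Ccl9 in each of the 4 cultures. Cxcl16 (4.52 CPM per kb), Cxcl5 (2.47) and Cxcl1 (0.762) closed the order, each below the range of the one before.

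With PTH, Cxcl1, Ccl7, Cxcl12 and Cxcl14 stood together at 150, 150, 143 and 139 CPM per kb, with overlapping ranges between neighbours. Cxcl5, Cx3cl1 and Ccl2 followed at 42.6, 38.3 and 36.5 CPM per kb, again with overlap. Ccl9 was at 11.6, Ccl5 at 7.11 and Cxcl16 at 5.72 CPM per kb, of which the last 2 overlapped. The order in both groups depended on the length used. Per kb of all annotated exons, a length tried after the data were seen, Ccl7 had 150, Cxcl14 139, Cxcl1 76.5 and Cxcl12 54.7 CPM per kb with PTH. With vehicle, Cxcl12 was still the highest by that length, at 52.0 CPM per kb, and Cxcl1 the lowest, at 0.387. The middle of the vehicle order changed, with Cxcl16 at 4.04 CPM per kb above Ccl5 at 3.70.

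As a share of the summed CPM per kb of the 10 genes, Cxcl12 went from 65.0 ± 2.42% with vehicle to 19.8 ± 1.55% with PTH (SD, n = 4), while its own level overlapped between the groups. Cxcl1 went from 0.372% to 20.6 ± 3.09%, Ccl7 from 3.92% to 20.7 ± 1.29% and Cxcl14 from 5.98% to 19.3 ± 3.06%. The share of Cx3cl1 went from 11.5% to 5.35% although its level was higher. Per kb of all annotated exons, the share of Cxcl12 went from 45.3 ± 2.52% to 10.3 ± 0.908%, that of Cxcl1 from 0.344% to 14.2 ± 2.30%, that of Ccl7 from 7.12% to 28.0 ± 1.87% and that of Cxcl14 from 10.9% to 26.0 ± 3.62%. Each of these 4 shares moved in the same direction by both lengths. Without division by length, the summed CPM of the 10 genes was 580 ± 57.7 with vehicle and 1243 ± 74.9 with PTH, and without Cxcl12 it was 155 ± 10.4 and 795 ± 67.3. All 38 ligand genes examined summed to 611 CPM with vehicle and 1307 CPM with PTH, so these 10 held most of the ligand counts in both groups.

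**Figure D3:**
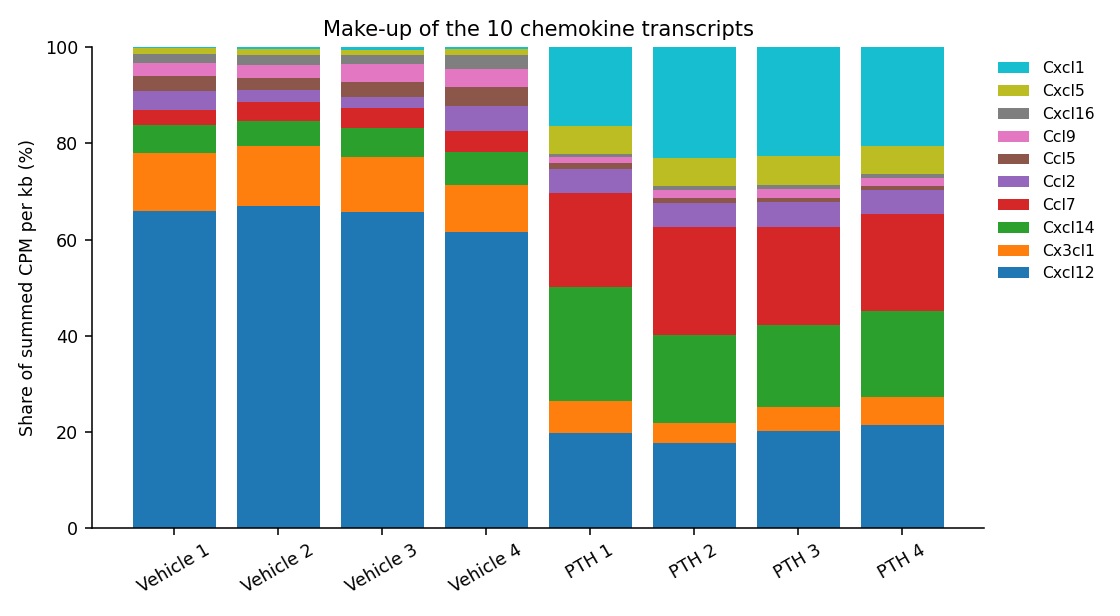
Share (%) of each gene in the summed CPM per kb of the 10 chemokine genes, by the length of the longest principal transcript, 1 stacked bar for each culture. By this length Cxcl12 (dark blue, at the base) takes 65.0% of the bar on average with vehicle and 19.8% with PTH, against 45.3% and 10.3% by the length of all annotated exons.

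Among 28 other chemokine ligand genes, 16 were tested, of which 12 were higher with PTH, none was lower and 4 did not pass the test, where 23.3% of all genes tested were higher and 22.5% lower. The median log2 fold change of the 16 was 1.15, and 9 of the 12 reached a value of 1, against 7.36% of all genes tested. Besides the ligands of the 3 chromosomal rows, Ccl25, a ligand of CCR9, rose from 2.22 ± 0.283 to 5.50 ± 1.70 CPM (log2 fold change 1.30, SE 0.226, edgeR adjusted p = 5.34e-04). Cxcl10, an interferon-induced ligand of CXCR3, rose from 1.64 ± 0.457 to 3.16 ± 0.381 CPM (log2 fold change 0.94, SE 0.227, edgeR adjusted p = 0.00491). Cxcl9, the other interferon-induced ligand of CXCR3 that was tested, had a log2 fold change of 0.01 (edgeR adjusted p = 0.978). Ccl24, Ccl27a and Ccl28 had log2 fold changes of 0.65, 0.22 and 0.05 and did not pass either, and 5 ligand genes were at 0 in every culture.

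Of 23 chemokine receptor genes, 11 were tested, of which 4 were higher and 1 was lower with PTH, and their median log2 fold change was 0.05. Of all genes tested, 23.3% were higher and 22.5% were lower. The clearest differences were in atypical receptors, which bind and remove chemokines without G protein signaling. Ackr3, the atypical receptor of CXCL12, had 19.1, 18.1, 18.5 and 18.7 CPM with vehicle and 104, 83.6, 102 and 108 CPM with PTH. The groups were far apart, and the vehicle cultures were nearly level. Ackr3 thus had a log2 fold change of 2.42 (SE 0.0840, edgeR adjusted p = 4.34e-10).

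Ackr2, a scavenger of inflammatory CC chemokines such as CCL2 and CCL7, had 0 to 8 counts with vehicle and 15 to 52 with PTH, a ratio of CPM of 9.26 (counting interval 5.30 to 17.5, edgeR adjusted p = 0.00212). Ccrl2, a nonsignaling relative that binds chemerin, rose from 0.544 ± 0.238 to 3.37 ± 0.597 CPM (log2 fold change 2.62, SE 0.300, edgeR adjusted p = 2.09e-05). Ackr4, a scavenger of CCL19, CCL21 and CCL25, had 35.4 to 50.1 CPM with vehicle and 25.2 to 29.2 CPM with PTH (log2 fold change -0.66, SE 0.106, edgeR adjusted p = 3.22e-04). It overlaps Acad11 on the opposite strand, which was lower as well (log2 fold change -0.57, edgeR adjusted p = 1.23e-04), and the reads of the overlap cannot be told apart.

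The signaling receptors of the chemokines above were low. Cxcr2, through which CXCL1 and CXCL5 act, was at 0 in every culture, Ccr2 had at most 14 counts and Ccr1 at most 18. Cxcr4, the receptor of CXCL12, had 0.736 to 1.94 CPM with vehicle and 1.70 to 2.51 CPM with PTH (log2 fold change 0.78, edgeR adjusted p = 0.0666). Without vehicle culture 4, Cxcr4 passed the test (log2 fold change 1.16, adjusted p = 0.00691), as it did with the culture number as a block (adjusted p = 0.0498). Cx3cr1, the receptor of CX3CL1 and a gene of macrophages, had 3.01 to 5.97 CPM with vehicle and 3.13 to 4.85 CPM with PTH (log2 fold change 0.01, edgeR adjusted p = 0.978).

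Ccr7, a receptor of lymph node homing, was called higher from 0 to 17 counts with vehicle and 10 to 50 with PTH (log2 fold change 2.09, edgeR adjusted p = 0.0363), but its groups overlapped. Its call held only without PTH culture 4 or vehicle culture 4 among the fits that left out a culture, and it was lost with the block (adjusted p = 0.0590). Ccr10 had a log2 fold change of -0.91 (edgeR adjusted p = 0.0566) and passed the test without PTH culture 2 (adjusted p = 0.0356). Cxcr3 and Cxcr5 had log2 fold changes of -0.55 and 0.05 and did not pass.

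**Figure D4:**
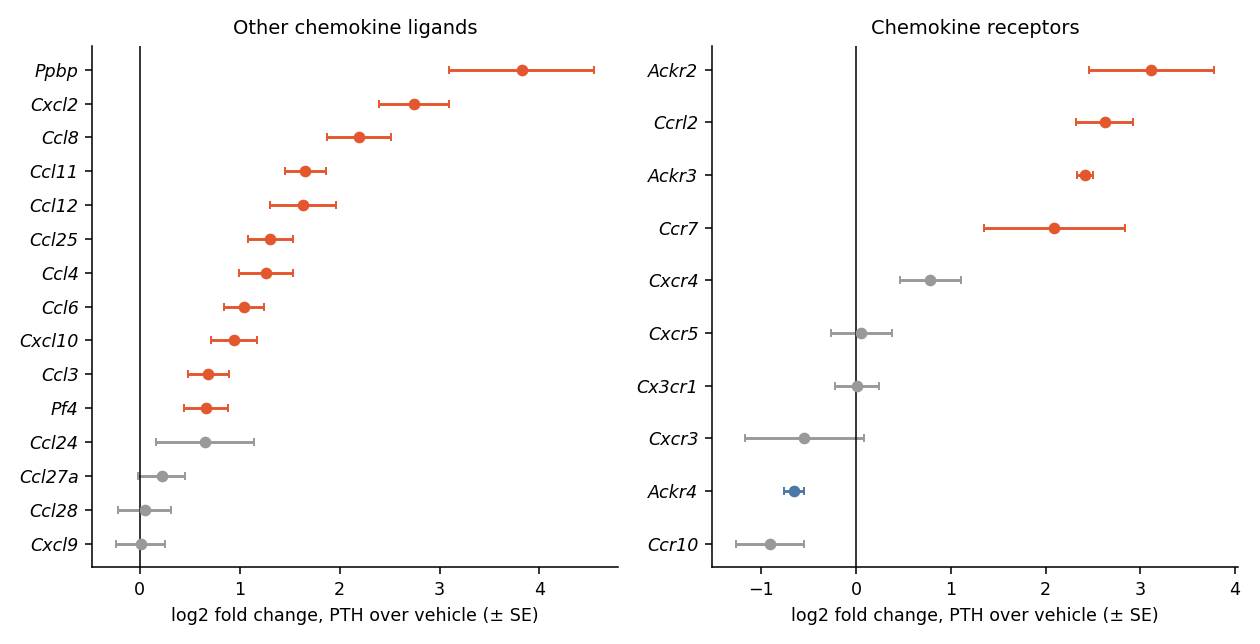
Log2 fold change of PTH over vehicle (points, ± SE from edgeR) for the tested ligand genes outside the 10 (left) and for 10 of the 11 tested receptor genes (right), orange for higher, blue for lower and grey for not passing the test. Cxcl3, with 3 vehicle counts in all, is left out, and Ackr4 is the only gene called lower on either side.

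A list of 35 genes of NF-κB, interleukin-1, Toll-like receptor and interferon signaling was examined because these pathways are the classical inducers of chemokine genes. Of the 35, 16 were higher and 7 were lower with PTH, with a median log2 fold change of 0.25, where 23.3% of all genes tested were higher and 22.5% lower. The largest increase was that of Il1rl1, which encodes the interleukin-33 receptor, from 3.73 ± 0.618 to 103 ± 12.3 CPM (log2 fold change 4.78, SE 0.133, edgeR adjusted p = 6.22e-11). Il1r1, the signaling receptor of interleukin-1, rose from 47.0 ± 2.64 to 190 ± 14.1 CPM (log2 fold change 2.02, SE 0.0737, edgeR adjusted p = 6.49e-10). The largest decrease was that of Tlr4, the receptor of lipopolysaccharide, from 24.0 ± 1.11 to 13.1 ± 1.36 CPM (log2 fold change -0.88, SE 0.0908, edgeR adjusted p = 8.31e-06).

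The nuclear IκB family members Bcl3 and Nfkbiz, which modify transcription at NF-κB sites, rose from 5.93 ± 0.956 to 106 ± 7.30 CPM and from 5.18 ± 0.755 to 46.4 ± 10.4 CPM. Their log2 fold changes were 4.15 (SE 0.114, edgeR adjusted p = 5.58e-11) and 3.16 (SE 0.161, adjusted p = 1.48e-08). Nfkbie and Nfkb2 rose by 1.53 and 1.01 on the log2 scale. Of the same list, Nfkb1, Nfkbia and Tnfaip3 were picked out after their values were seen. Nfkb1 was higher with PTH (log2 fold change 0.80, edgeR adjusted p = 2.81e-07). Nfkbia and Tnfaip3 had log2 fold changes of -0.22 (edgeR adjusted p = 0.0537) and -0.12 (adjusted p = 0.359) and did not pass the test.

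Many chemokine mRNAs carry AU-rich elements through which their decay is set, and 8 genes for mRNA decay and stability factors were examined for this reason. With PTH, 6 were higher and 1 was lower, where 23.3% of all genes tested were higher and 22.5% lower. Zfp36, which encodes tristetraprolin, a factor that binds AU-rich elements and speeds decay, rose from 23.0 ± 1.77 to 151 ± 11.6 CPM (log2 fold change 2.72, SE 0.0814, edgeR adjusted p = 1.28e-10). Its relatives Zfp36l1 and Zfp36l2 rose by 2.10 (adjusted p = 3.33e-10) and 1.02 (adjusted p = 2.37e-07) on the log2 scale by edgeR's test. The gene that was lower, Khsrp, which encodes another decay factor, had a log2 fold change of -0.36 (edgeR adjusted p = 4.04e-04).

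The genes whose pattern over the 8 cultures was most like that of Cxcl1 and Ccl7 were found by the root mean square difference of centred log2 CPM, as a description. For Cxcl1 these were Nr4a3 (0.468), Apold1 (0.477) and Scrt1 (0.646). Nr4a3, which encodes an orphan nuclear receptor, averaged 2.46 ± 0.481 CPM in the vehicle cultures and 345 ± 20.9 CPM in the PTH cultures (SD, n = 4). For Ccl7 the nearest were Tinf2 (0.138), Has2 (0.167) and Gm44013 (0.167). Has2, which encodes a hyaluronan synthase, averaged 10.1 ± 0.795 and 159 ± 5.66 CPM. The matches of Cxcl1 were looser than those of Ccl7, and Cxcl1 also had the wider spread over cultures within each group.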

How the data were processed

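Poly(A)-enriched RNA was sequenced from 4 PTH and 4 vehicle cultures. The authors aligned reads with HISAT2 to GRCm38 (mm10), assembled transcripts with StringTie and deposited unnormalized whole-number counts per gene, made from transcript coverage by StringTie's companion script. Its read length setting, the annotation version and the strand setting are not given in the sources used here. Groups were taken from the labels, and no sample was left out.

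Treatments were compared in edgeR 4.0.16 (TMM library sizes, the filterByExpr filter at 10 counts and 15 in total, two-sided quasi-likelihood F-test, Benjamini-Hochberg adjustment over all genes tested) in R 4.3.3. Calls used an adjusted p under 0.05 with no minimum fold change, as in the study's methods. A standard error is the log2 fold change divided by the square root of F. The 95% intervals use the total degrees of freedom of the fit, which are residual plus prior. CPM use TMM library sizes. The authors tested with DESeq2, so DESeq2 1.42.0 served as an alternative test. The steps were tested on simulated data. Positions and transcript lengths come from GENCODE M21, and promoters from RefSeq (GRCm38.p6). Similar transcripts were found with blastn 2.17.0. Exact counting intervals used SciPy 1.17.1 and permutation tests used NumPy 2.4.6, both in Python 3.11.15.

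The 10 genes and the lists were chosen with earlier results of these data known. The text names all 10, every tested ligand and receptor gene, the called protease, inflammatory and decay genes with the largest change each way or a log2 fold change of at least 1, Tnfsf11, Pth1r and the 3 genes nearest in pattern to the 2 most changed members; some of these genes are not reported here. Other alternatives were DESeq2's size factors, no filter, a replicate block, leaving out each culture, summed entries of a symbol, a log2 fold change of 1 or more, halved counts and a pseudocount of 1 CPM. At 33605610 counts or more per culture, precision is limited for genes with few counts.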

Additional observations from a re-analysis of the deposited data

Results flagged for a closer look

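In 74 groups of 4 cultures, 7 held a culture that stood apart from the other 3 by Dixon's test, which chance does in about 1 in 20 groups. None of the 10 chemokine genes was among them. Vehicle culture 4 stood apart for Ccl3, with 9.64 CPM against 4.73 to 5.56, for Cx3cr1, with 5.97 CPM against 3.01 to 3.46, and for Ccl27a, with 2.38 CPM against 3.49 to 3.71. This culture also had the highest macrophage marker sum of the vehicle cultures, and the part of that in these values was not tested. PTH culture 3 stood apart for Ccl11, with 7.75 CPM against 9.64 to 9.69. Vehicle culture 1 stood apart for Cxcr3, with 0.759 CPM against 0.138 to 0.222, and vehicle culture 3 for Ccrl2, with 0.897 CPM against 0.379 to 0.464. Vehicle culture 2 had 0.0689 CPM of Cxcl3, from 3 counts, where the other vehicle cultures had 0.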

How the results depend on the processing

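Under DESeq2, DESeq2's size factors, no filter, the block and summed entries, each count of calls for the 10 genes, the other ligands, the receptors and the inflammatory list stayed within 1.5 times its value. Leaving out each culture gave 7 to 8 higher and 0 lower of the 10 genes, 10 to 12 higher and 0 lower ligands, 3 to 5 higher and 1 to 2 lower receptors (2 without PTH culture 2), and 15 to 18 higher and 7 to 8 lower inflammatory genes. Requiring a log2 fold change of 1 or more kept 5 of the 10 genes, 0 lower receptors, and 7 higher and 0 lower inflammatory genes. Halving the counts, which was added after seeing the data because the companion script's default read length is below that sequenced, gave 2 higher and 2 lower receptors. Without a low-count filter Cxcl16 lost its call (adjusted p = 0.0951), as did Pf4 (adjusted p = 0.0563) and Ccr7 (adjusted p = 0.0757). The log2 fold change of Ccl5 turned to -0.0029 without PTH culture 1 and to -0.0063 without vehicle culture 2, in a range of -0.0063 to 0.16 over the fits that left out a culture. A pseudocount of 1 CPM cannot alter the permutation p of groups that do not overlap. The labels do not say whether the culture numbers pair the samples. Same-numbered cultures had correlations of -0.041 to 0.027 after removal of group means, and none was over 0.1. These values show no shared pattern but cannot show whether such cultures came from the same preparation. With the number as a replicate block, 7 of the 10 genes, 12 other ligands, 4 receptors and 16 inflammatory genes were higher; Cxcl16 and Ccr7 lost their call and Cxcr4 gained one.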
